A study of Mus musculus with 20 samples.

Results

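Transcript counts of 7 genes of DNA repair that are known as targets of p53 were followed over radiation dose in the thoracic aorta of mice. The genes were Xpc, Ddb2, Ercc5, Polh, Polk, Rrm2b and Mgmt, chosen by name for their part in nucleotide excision repair, translesion synthesis, nucleotide supply and alkyl repair. The choice was made with earlier results of these data known. All 7 were found among the 21078 genes of the count table, and all 7 averaged 5 counts or more over the mice and were tested. The study exposed male wildtype C57BL/6 mice of 10 to 12 weeks to total-body irradiation and took the aorta 4 h later. The Proton group (10 mice) received high energy protons from a cyclotron, and the Gamma group (10 mice) received gamma rays from a caesium source. In each group 1 mouse was given each of the doses 0, 5, 10, 25, 50, 75, 100, 125, 150 and 200 cGy, and the mouse at 0 cGy was placed in the irradiator without exposure. No dose was repeated within a radiation type, so all tests rest on the trend over doses or on the pairs of mice at the same dose.

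Cells answer ionising radiation through the kinase ATM and the transcription factor p53, which raises the transcription of genes of arrest, death and repair. Xpc and Ddb2 encode proteins that find bulky lesions in the nucleotide excision repair of DNA, and Ercc5 encodes XPG, the nuclease that cuts on the 3′ side of the lesion. Polh and Polk encode the polymerases eta and kappa, which copy past damaged bases. Rrm2b encodes the p53-inducible small subunit of ribonucleotide reductase, which supplies deoxynucleotides outside S phase. Mgmt encodes the protein that removes alkyl groups from the O6 position of guanine and is used up in the process. Human DDB2, XPC and RRM2B are textbook p53 targets, while the rodent Ddb2 gene has been described as lacking this control.

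The DNA around the annotated 5′ ends was read from mm9, the build of the count table, to show what these genes carry of the p53 response element. That element is 2 half-sites of 10 bases, each with 3 purines, a C, a pair of A or T bases, a G and 3 pyrimidines. The pattern is its own reverse complement, so a single scan covers both strands. Within 5000 bases on either side of the 5′ end, 0 of the 7 genes held an element without spacer, with the C and G of both cores intact and at most 2 mismatches, against 11.1% of the 13124 tested genes and 47.8% of 23 other p53 targets. With up to 3 mismatches the shares were 2 of 7, 42% and 65.2%. Of the 7 genes, Polh and Ercc5 came closest, with 3 mismatches each. A site with the fewest mismatches is given for each gene, 5′ to 3′ on the strand of the gene, with bases 4 to 7 of each half-site in capitals. Where several sites tied, which was so for Polk (4 sites) and for Ddb2, Rrm2b, Ercc5 and Mgmt (2 each), the one closest to the 5′ end is shown. Cdkn1a, the cell cycle inhibitor p21, is shown beside them as a reference with 1 mismatch.
Xpc: accCATGttggggCAGGctt
Ddb2: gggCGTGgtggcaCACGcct
Ercc5: gtaCATGcctggaCGTGtgt
Polh: gtgCATGcatggaCAAGtca
Polk: cacCCAGctcctgCTTGctc
Rrm2b: gagCAAGagtgggCGGGgtc
Mgmt: agtCTTGccttagCCAGtgt
Cdkn1a: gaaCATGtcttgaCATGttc
The Ercc5 site lay at chr1:44205598-44205617 (plus strand), 1009 bases past the 5′ end in an intron of Ercc5. The Polh site lay at chr17:46336278-46336297 (minus strand), in an intron of Polh. The Polk site with 5 mismatches at chr13:97311005-97311024 and the Ddb2 site with 5 at chr2:91075563-91075582 were also intronic in their own genes, both on the minus strand. The Mgmt site with 4 mismatches at chr7:144084249-144084268 (plus strand) was upstream of the 5′ end, outside annotated genes. The Rrm2b site with 5 at chr15:37891120-37891139 (minus strand) was just before the 5′ end. The Xpc site with 4 at chr6:91469832-91469851 (read on the minus strand) fell in an intron of the neighbouring gene Lsm3. The Cdkn1a site lay at chr17:29227873-29227892, just before its 5′ end. A match here is a description of letters and not a site of binding, and the lack of one covers only this window and this pattern.

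The 250 bases before the 5′ end are shown for Mgmt and Ercc5, whose counts followed gamma dose most closely in rank. No exact half-site of 10 bases was present, so no base is in capitals. An exact half-site was found in 0 of the 7 such windows and in 6.16% of those of all tested genes.
Mgmt: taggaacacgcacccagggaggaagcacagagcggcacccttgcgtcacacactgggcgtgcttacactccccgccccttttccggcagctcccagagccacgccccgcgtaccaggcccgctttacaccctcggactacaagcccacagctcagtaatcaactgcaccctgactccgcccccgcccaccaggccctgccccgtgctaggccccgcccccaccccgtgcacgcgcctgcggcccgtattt
Ercc5: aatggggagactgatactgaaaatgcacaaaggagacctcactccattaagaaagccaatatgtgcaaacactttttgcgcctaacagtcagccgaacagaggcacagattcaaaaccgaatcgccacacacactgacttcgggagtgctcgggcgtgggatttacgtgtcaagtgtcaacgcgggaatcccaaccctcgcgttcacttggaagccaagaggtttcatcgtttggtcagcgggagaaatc
The Mgmt window is chr7:144086044-144086293 on the plus strand, with 68% G and C. The Ercc5 window is chr1:44204339-44204588 on the plus strand, with 50%.

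The deposited sense counts summed to 6051657 to 6058006 per mouse, and 15800 to 16949 genes had a count. The authors had resampled the libraries to this common depth. Smooth muscle markers had summed counts of 165116 to 331014 in the proton mice and 244908 to 332585 in the gamma mice, and all 6 of them were detected. The lowest smooth muscle sum belonged to the proton mouse at 75 cGy, which stood apart. Its 5 brown fat markers summed to 13884 counts against a proton median of 1754, and its 5 white fat markers to 11195 against 1216. The gamma mouse at 100 cGy had the highest fat markers of its group, with 5050 brown fat counts against a gamma median of 956.5 and 4151 white fat counts against 1245.5. Its macrophage sum of 1443 was also the highest, beside 1439 in the gamma mouse at 0 cGy. The 6 endothelial markers summed to 2264 to 7688 counts in the proton mice and 2232 to 7793 in the gamma mice, where the mouse at 200 cGy was highest. Their median slopes per 100 cGy were 0.34 with proton and 0.23 with gamma dose, and 5 and 6 of them were positive. For the 5 fibroblast markers the medians were -0.020 and -0.11, and 1 and 0 were positive. Of the markers of 9 cell types, 0 passed the edgeR test of a dose slope in either radiation type. By the exact trend test 1 marker of proliferating cells rose with gamma dose, and the median gamma slope of the 4 tested markers of that list was 0.85, with summed counts of 16 to 97 in the gamma mice. With proton dose 0 of them rose by that test and their median slope was -0.33, with summed counts of 17 to 75 for the list. A second property followed dose. The deviation of each gene from its own mean correlated with the GC content of its exons at r between -0.40 and -0.35 for the 4 mice of the highest doses, 150 and 200 cGy, whereas it ran from -0.0095 to 0.28 for the remaining 16, across 9817 genes, which are not independent replicates. The labels give no batch of library preparation, and dose and this difference between libraries cannot be told apart at 150 and 200 cGy.

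The slope of log2 count on dose, per 100 cGy, was tested with edgeR's quasi-likelihood test over all 20 mice, with Benjamini-Hochberg adjustment over 13124 genes and a threshold of 0.1. In this test Polk and Mgmt rose with proton dose, and Polk, Ercc5 and Mgmt rose with gamma dose, while 0 of the 7 genes fell. The 2 of 7 after proton radiation compare with 1.6% of all tested genes that rose and 0.16% that fell. The 3 of 7 after gamma radiation compare with 5.44% that rose and 2.21% that fell. Mgmt had the largest slopes of the 7 genes, at percentile 99.6 of all tested genes after proton and 99.2 after gamma radiation. The exact one-sided permutation test of the rank correlation between count and dose was passed by 0 of 7 genes after proton radiation, where 0.198% of all genes passed, and by 3 of 7 after gamma radiation, where 1.9% passed. The 3 were again Ercc5, Mgmt and Polk. All these shares are a description, since the 7 genes were chosen with earlier results of these data known. In these whole-tissue libraries a change in the RNA of each cell and a change in the mix of cells cannot be told apart.

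**Figure D1:**
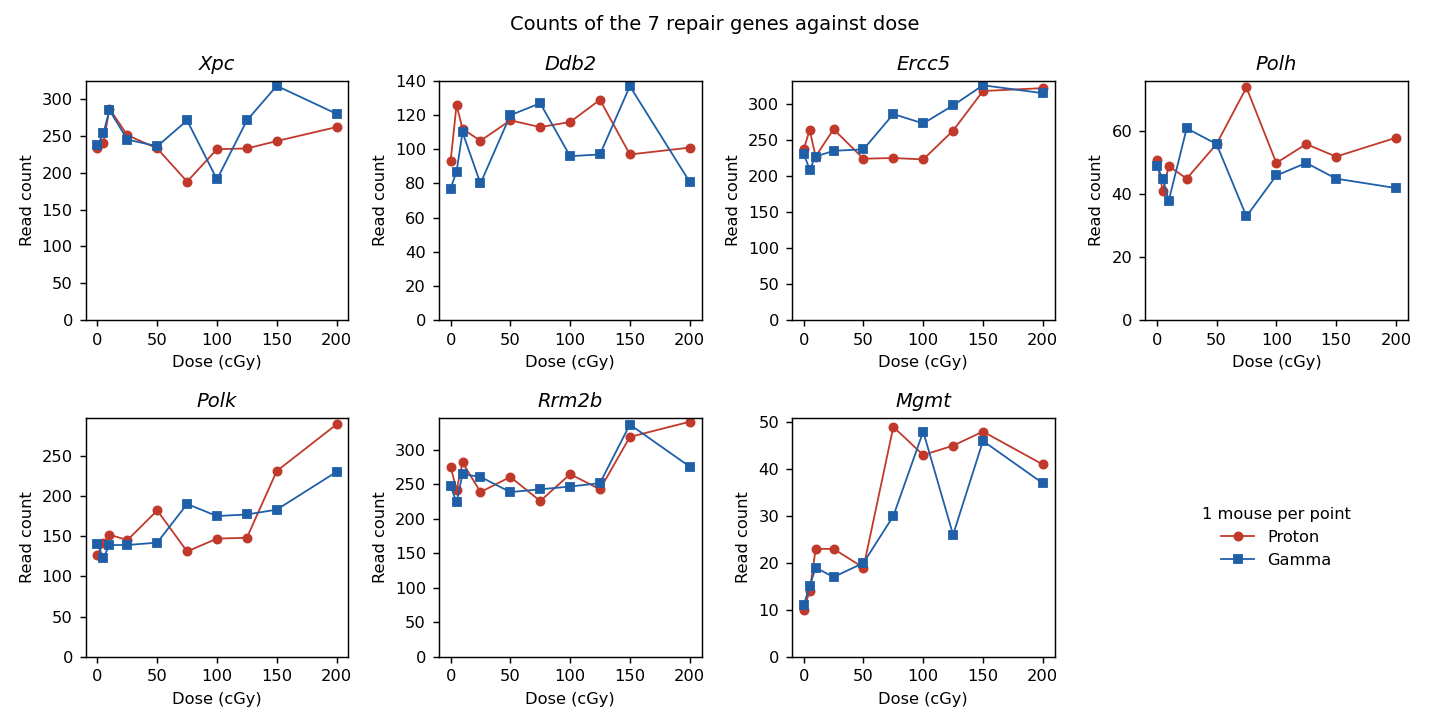
Read count (vertical axes, from 0) against dose in cGy (horizontal axes) for each of the 7 genes, 1 mouse per point, proton mice as red circles and gamma mice as blue squares. Mgmt climbs from 10 and 11 counts at 0 cGy to 41 and 37 at 200 cGy, and Polk reaches its highest counts, 289 and 230, at 200 cGy in both radiation types.

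The genes differed in level. Per kilobase of exon and averaged over the 20 mice, Ercc5 had the highest level at 57.9 counts, followed by Xpc at 45.4 and Rrm2b at 41.1. Polk and Ddb2 both stood at 38.8, Mgmt at 35.7 and Polh at 19.4. Mgmt and Polh had the fewest reads as such, with mean counts of 29.2 and 49.9, so their values carry the widest counting error.

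Xpc, which binds the distorted helix and starts global excision repair, lies at chr6:91439299-91465878 on the minus strand. In the proton mice its counts were 233, 240, 287, 251, 233, 188, 232, 233, 243 and 262 in order of dose. In the gamma mice they were 237, 254, 285, 245, 236, 271, 191, 271, 318 and 280. Irradiated mice lay on both sides of the mouse at 0 cGy, with 5 of 9 above it after proton and 7 of 9 after gamma radiation. The fitted slope was 0.0045 ± 0.088 (SE) after proton and 0.086 ± 0.089 after gamma radiation, with edgeR adjusted p of 0.998 and 0.706. The 95% intervals of -0.18 to 0.19 and -0.10 to 0.27 leave room for a change of either sign. The lowest proton count, 188, came from the mouse at 75 cGy with the high fat markers.

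Ddb2, the damage-binding partner of Ddb1 that brings Xpc to lesions, lies at chr2:91051729-91077139 on the minus strand. It overlaps Acp2 on the opposite strand over 2527 bases, which sense counting of stranded reads keeps apart. Proton counts in order of dose were 93, 126, 112, 105, 117, 113, 116, 129, 97 and 101. Gamma counts were 77, 87, 110, 80, 120, 127, 96, 97, 137 and 81. The mouse at 0 cGy was the lowest of its group in both radiation types, and all 9 irradiated mice of each group lay above it. This order rests on 1 mouse at 0 cGy per group. The share of all tested genes with such an order was not counted. The counts at 200 cGy were nevertheless 1.09 and 1.05 times those at 0 cGy. The fitted slope was -0.020 ± 0.12 for protons and 0.083 ± 0.12 for gamma rays (edgeR adjusted p = 0.983 and 0.825), with 95% intervals of -0.27 to 0.23 and -0.17 to 0.34.

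Ercc5, the 3′ nuclease, lies at chr1:44204589-44238105 on the plus strand. After gamma radiation its counts in order of dose were 231, 209, 227, 235, 237, 286, 273, 298, 326 and 315. The 5 mice from 75 cGy upward were all above the 5 mice at lower doses. This cut, and the other cuts between doses given below, were read from the counts themselves. The share of all tested genes that split in such a way was not counted. The gamma slope was 0.30 ± 0.066 with an edgeR adjusted p of 0.0227, and the rank correlation with dose was 0.94 with an exact adjusted p of 0.0314. From 0 to 125 cGy alone the slope was of like size, 0.32, with an adjusted p of 0.359 in a fit that called few genes of any kind. After proton radiation the counts were 237, 264, 227, 265, 224, 225, 223, 263, 318 and 322. Here the 2 mice at 150 and 200 cGy were above all others and the remaining 8 lay between 223 and 265, and the slope of 0.20 ± 0.064 (edgeR adjusted p = 0.149) turned to -0.036 without those 2 doses. Its rank correlation was 0.30. The proton call was made without the mouse at 125 cGy (slope 0.22, adjusted p = 0.098), and the gamma call was lost without the mouse at 200 cGy (slope 0.34, adjusted p = 0.122).

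Polh, the polymerase that copies past ultraviolet dimers, lies at chr17:46308953-46339574 on the minus strand and had few reads. Proton counts were 51, 41, 49, 45, 56, 74, 50, 56, 52 and 58, and gamma counts were 49, 45, 38, 61, 56, 33, 46, 50, 45 and 42. At 75 cGy the proton mouse had the highest count of its group and the gamma mouse the lowest, 74 against 33. The slopes were 0.16 ± 0.12 and -0.084 ± 0.12, with edgeR adjusted p of 0.665 and 0.822. The 95% intervals were -0.10 to 0.41 and -0.34 to 0.17. The proton mouse at 75 cGy is the one with the high fat markers, and the slope without it was 0.15. The part of those markers in its Polh count was not tested.

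Polk, the polymerase that copies past bulky adducts, lies at chr13:97250644-97312440 on the minus strand. Proton counts in order of dose were 127, 141, 152, 145, 182, 131, 147, 148, 231 and 289. The mice at 150 and 200 cGy were above every other proton mouse, and the remaining 8 lay between 127 and 182. Gamma counts were 140, 123, 139, 139, 142, 190, 175, 177, 183 and 230. Here the 5 gamma mice from 75 cGy upward were above the 5 at lower doses, a cut read from these counts. Means over 0 to 25, 50 to 125 and 150 to 200 cGy were 141, 152 and 260 counts after proton radiation and 135, 171 and 206.5 after gamma radiation, from 4, 4 and 2 mice. The slope was 0.46 ± 0.091 after proton and 0.37 ± 0.095 after gamma radiation, with edgeR adjusted p of 0.0219 and 0.0385. Over 0 to 125 cGy the proton slope was 0.036 and the gamma slope 0.37, with adjusted p of 0.985 and 0.505. The rank correlation was 0.70 after proton radiation (exact adjusted p = 0.609) and 0.85 after gamma radiation (exact adjusted p = 0.0880). The edgeR call was lost without the proton mouse at 150 cGy (slope 0.43, adjusted p = 0.113) or at 200 cGy (0.30, 0.741), and for gamma radiation without the mouse at 200 cGy (0.33, 0.323).

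Rrm2b, the ribonucleotide reductase subunit, lies at chr15:37853707-37891073 on the minus strand. The pseudogene Gm3362 overlaps it on the same strand over 466 bases, and reads there could be counted for either. Proton counts were 276, 242, 282, 239, 261, 226, 265, 243, 319 and 341. Gamma counts were 248, 224, 265, 261, 239, 243, 247, 252, 337 and 276. In both radiation types the mice at 150 and 200 cGy were above the other 8, which lay between 226 and 282 after proton and between 224 and 265 after gamma radiation. The slopes were 0.17 ± 0.074 and 0.13 ± 0.076, with edgeR adjusted p of 0.313 and 0.414. From 0 to 125 cGy they were -0.096 and -0.032. With a correction for the GC content and length of genes they were 0.074 and 0.019. Exons of Rrm2b hold 40.4% G and C, below the lower quartile of 45.2% of the tested genes.

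Mgmt, the alkyl transferase, lies at chr7:144086294-144319870 on the plus strand. Proton counts in order of dose were 10, 14, 23, 23, 19, 49, 43, 45, 48 and 41. The 5 mice from 75 cGy upward had 41 to 49 counts, above the 5 at lower doses, which had 10 to 23. The share of all tested genes that split at this dose was not counted. Gamma counts were 11, 15, 19, 17, 20, 30, 48, 26, 46 and 37. Here too the 5 mice from 75 cGy upward, with 26 to 48 counts, were above the 5 at lower doses, with 11 to 20. The count at 200 cGy was 4.10 times that at 0 cGy after proton and 3.36 times after gamma radiation. By counting error alone, the exact 95% Poisson intervals were 4.80 to 18.4 counts at 0 cGy and 29.4 to 55.6 at 200 cGy for the proton mice, and 5.49 to 19.7 and 26.1 to 51.0 for the gamma mice. Its slopes were 0.91 ± 0.23 and 0.84 ± 0.23, with edgeR adjusted p of 0.0647 and 0.0452 and 95% intervals of 0.44 to 1.39 and 0.37 to 1.31. The rank correlations were 0.77 (exact adjusted p = 0.543) and 0.88 (exact adjusted p = 0.0718).

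Unlike Polk and Ercc5 in the proton mice, Mgmt was already high below 150 cGy. Over 0 to 125 cGy its slope was 1.46 after proton and 1.15 after gamma radiation, with adjusted p of 0.291 and 0.411. In that reduced fit 13 genes rose with proton dose and 29 with gamma dose in all. Exons of Mgmt hold 56.8% G and C, and the correction for GC content and length moved its slopes up, to 1.01 and 0.93, with adjusted p of 0.0136 and 0.0187. The highest proton count came from the mouse at 75 cGy with the high fat markers, and without it the slope was 0.90. The highest gamma count, 48, came from the mouse at 100 cGy with the highest fat markers of its group, and without it the slope was 0.79 (edgeR adjusted p = 0.0392). The proton call was lost when any of the mice at 0, 5, 10, 25, 50 or 150 cGy was left out (slopes 0.76 to 0.96, adjusted p 0.105 to 0.246). The gamma call was lost without the mouse at 0, 5, 150 or 200 cGy (slopes 0.73 to 1.11, adjusted p 0.108 to 0.172).

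The same correction was applied to the other genes that rose. Polk, whose exons hold 41.7% G and C, had corrected slopes of 0.40 after proton and 0.31 after gamma radiation, with edgeR adjusted p of 0.0340 and 0.0786. Ercc5, with 47.2%, had 0.18 and 0.26, with adjusted p of 0.285 and 0.0418. All 5 calls made without the correction were made with it, and no other of the 7 genes passed. Among all 13124 tested genes, the corrected fit called 107 rising with proton dose and 302 with gamma dose. Without the correction 210 and 714 were called rising.

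**Figure D2:**
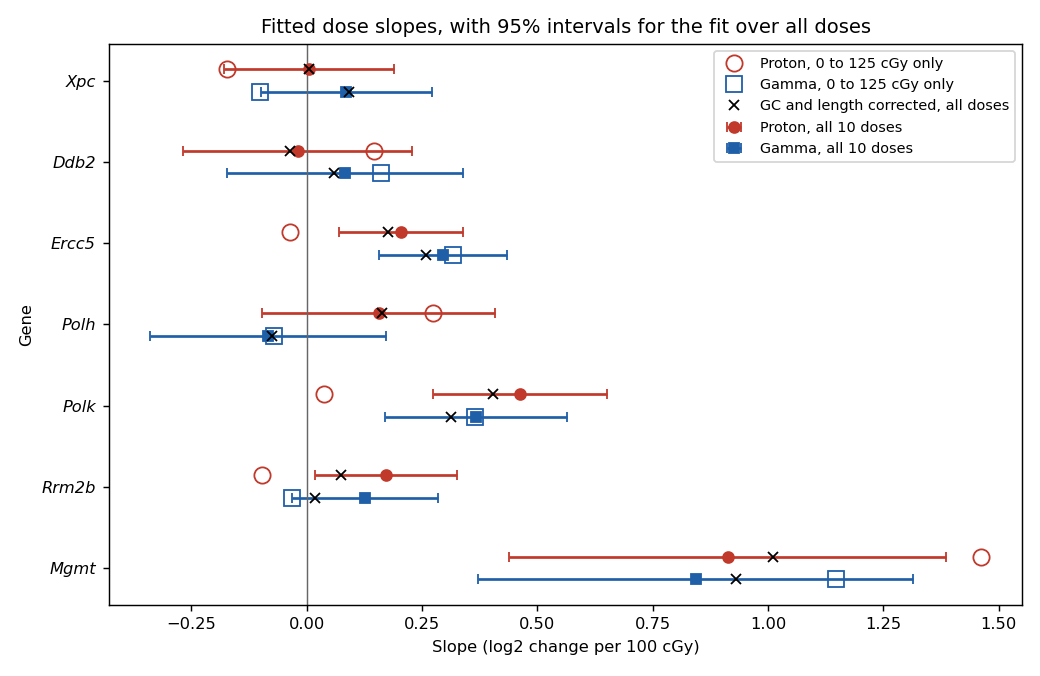
Fitted slope (log2 change per 100 cGy, horizontal axis) for each gene (vertical axis), as filled red circles for proton and filled blue squares for gamma mice, with bars for the 95% interval. Open symbols are fits to 0 to 125 cGy only and black crosses are fits corrected for GC content and length. The open proton symbols of Polk (0.036) and Ercc5 (-0.036) lie near 0, while both open symbols of Mgmt (1.46 and 1.15) lie to the right of the filled ones.

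The slopes of the 2 radiation types were set against each other in the same model. The difference, proton minus gamma, was 0.09 for Polk (95% interval -0.18 to 0.37), 0.07 for Mgmt (-0.62 to 0.76) and 0.05 for Rrm2b (-0.18 to 0.27). It was 0.24 for Polh (-0.12 to 0.60), -0.08 for Xpc (-0.34 to 0.18), -0.09 for Ercc5 (-0.29 to 0.10) and -0.10 for Ddb2 (-0.46 to 0.25). A difference was called by edgeR in 0 of the 7 genes and in 0% of all tested genes. An unadjusted p under 0.05 was found for 254 of 13124, fewer than chance alone gives on average. That Ercc5 passed after gamma radiation and not after proton radiation was thus not shown to be a difference between them.

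At matched dose, proton against gamma mice differed in 0 of the 7 genes and in 0% of all genes by the edgeR test with dose as a factor. An unadjusted p under 0.05 was found for 1032 genes, more than chance alone gives on average, though genes are not independent replicates. The largest estimate was that of Mgmt, 0.20 on the log2 scale (95% interval -0.079 to 0.48, higher in the proton mouse at 6 of 10 doses). Polh was 0.18 higher in proton mice (-0.11 to 0.46, higher at 7 doses) and Ddb2 0.13 higher (-0.077 to 0.34, higher at 7). For Xpc the estimate was -0.12 (-0.27 to 0.034, lower in proton mice at 7 doses). Polk, Rrm2b and Ercc5 had estimates of 0.012, 0.038 and -0.050. These 7 adjusted p lay between 0.718 and 0.982.

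Other genes of the same pathways were counted from lists chosen with earlier results of these data known. Over all tested genes 1.6% rose and 0.16% fell with proton dose, and 5.44% rose and 2.21% fell with gamma dose. Of 24 further genes of nucleotide excision repair, 1 rose with proton dose and 3 rose with gamma dose, with median slopes of -0.0049 and 0.032 beside 0.0018 and 0.013 over all tested genes. The gene that rose in both was Uvssa (4933407H18Rik in the table), a factor of transcription-coupled repair, with slopes of 0.44 and 0.47 and edgeR adjusted p of 0.0581 and 0.0227. Ercc4, the XPF nuclease that cuts on the 5′ side, rose with gamma dose (0.26, adjusted p = 0.0262), as did Ercc6, the remodeller of stalled transcription (0.23, 0.0888).

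Of 14 further translesion genes, 1 rose with proton dose and 3 with gamma dose, and 0 fell, with median slopes of 0.016 and 0.093. Hltf, a ubiquitin ligase of Pcna, rose in both (0.24 and 0.21, edgeR adjusted p = 0.0793 and 0.0683). Its relative Shprh (0.31, 0.0486) and Rev3l, the catalytic subunit of polymerase zeta (0.28, 0.0511), rose with gamma dose. Their proton slopes of 0.30 and 0.26 had adjusted p of 0.102 and 0.114. Exons of these 3 genes hold 39.2%, 39.8% and 41.0% G and C, so all were below the lower quartile of the tested genes, as Polk and Rrm2b were. Those of Uvssa, Ercc6 and Ercc4, which rose as well, hold 46.3%, 46.2% and 49.5% and were above it. Of 12 genes of nucleotide supply, Rrm1, the large subunit of ribonucleotide reductase, rose with gamma dose (0.22, adjusted p = 0.0971), and 0 passed after proton radiation. Exons of Rrm1 hold 44.4% G and C, also below the lower quartile. The part of GC content in the slopes of these list genes was not tested. Of 12 genes of alkyl and base damage repair, 0 rose and Parp1, a sensor of DNA breaks, fell with gamma dose (-0.20, adjusted p = 0.0503).

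The 7 genes were also set beside 24 other p53 targets, of which 23 were tested. Of those 23, 13 rose with proton and 13 with gamma dose, beside 1.6% and 5.44% of all tested genes, and 0 fell. Their median slopes were 0.62 and 0.60. The medians of the 7 repair genes were 0.17 and 0.13. Aen, a nuclease of apoptosis, rose from 133 to 621 counts between 0 and 200 cGy after proton radiation and from 160 to 634 after gamma radiation, with a slope of 0.99 ± 0.09 in each. Ccng1, cyclin G1, had slopes of 0.95 and 0.84, and Mdm2, the ubiquitin ligase of p53, had 0.40 and 0.42. Btg2, an antiproliferative gene, had 0.91 and 0.48. Of the 7 genes Mgmt had slopes in the range of Aen and Ccng1, and Polk in that of Mdm2. These values are a description, since both lists were chosen with results of these data known.

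**Figure D3:**
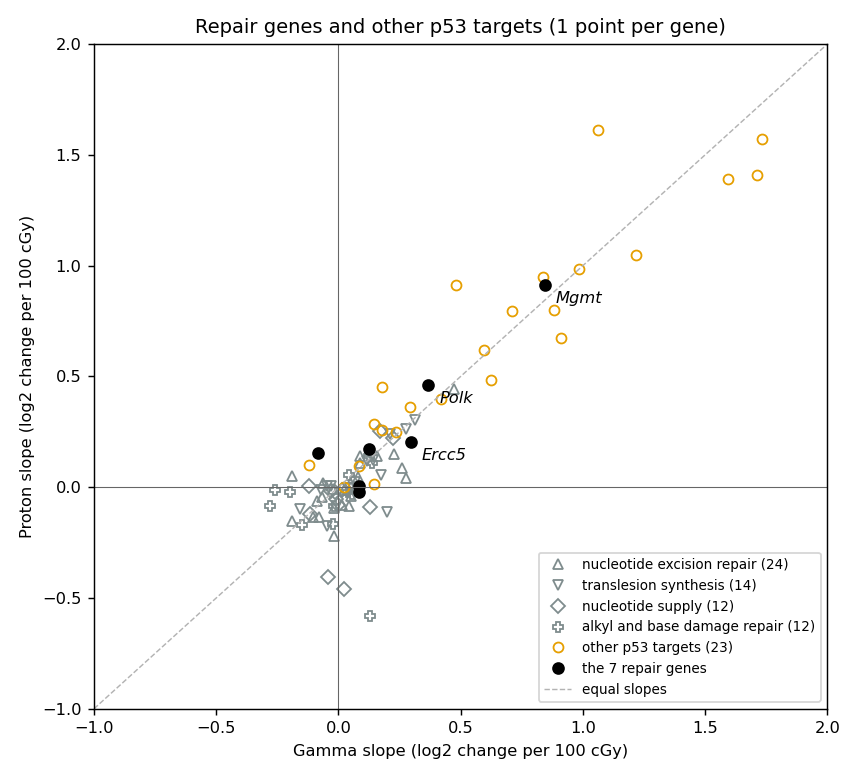
Proton slope (vertical axis) against gamma slope (horizontal axis), both as log2 change per 100 cGy, with 1 point per gene. The 7 repair genes are filled black, 23 other p53 targets are open orange circles, and the other repair lists are open grey symbols. Mgmt sits at 0.84 and 0.91 among the orange points, while the other repair genes lie nearer the origin. The dashed line marks equal slopes. Some repair genes lie off it, such as Ung at 0.13 (gamma) and -0.58 (proton) and Polh at -0.084 and 0.16.

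The 7 genes were compared in their pattern over the 20 mice by the Pearson correlation of their scaled log2 levels, given as a description, since all mice share their library properties across genes. Polk and Ercc5 were the most alike pair at 0.82, followed by Polk and Rrm2b at 0.70 and Rrm2b and Ercc5 at 0.61. Polk and Mgmt stood at 0.54, and the lowest pair was Xpc and Polh at -0.49. The 2 genes most like each were sought among 9812 whose counts averaged 50 or more. For Mgmt these were Dcxr (0.90), a reductase that is itself on the list of p53 targets, and 9030617O03Rik (0.89). Dcxr had slopes of 0.67 and 0.91, and 9030617O03Rik had 1.16 and 1.19. For Polk they were Tmtc3 (0.92) and Ulk2 (0.89), for Ercc5 Birc2 (0.93) and Synj1 (0.89), and for Rrm2b 1110037F02Rik (0.92) and Chd9 (0.91). For Xpc they were Klhl23 (0.90) and Wdfy1 (0.86), for Ddb2 Safb2 (0.78) and Slc9a8 (0.77), and for Polh F11r (0.81) and Nek6 (0.78).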

How the data were processed

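RNA sequencing libraries of the thoracic aorta were made from 20 mice by polyA selection with a stranded, paired 100 base protocol. Per the labels and the study's methods, the authors used CASAVA 1.8.1, aligned reads to mm9 with STAR 2.5.2a, resampled all libraries to a common depth with PORT and deposited sense counts per gene. The resampling discards reads of deeper libraries and leaves totals near 6056776 (median). Coordinates and gene models were taken from GENCODE M1, in which all 21078 identifiers were found.

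Genes that averaged 5 counts or more were fitted with edgeR 4.0.16 in R 4.3.3 (TMM, robust quasi-likelihood), where protons and gamma rays each had their own intercept and slope. The Spearman trend test enumerated all orders of the 10 doses within a type. Adjusted p-values are by Benjamini-Hochberg over all tested genes. Each group holds separate animals, with no dose repeated within a type. The edgeR p-values of slopes rest on the spread of mice of both types around straight lines on dose, which includes any misfit of those lines. For each gene edgeR draws this spread towards that of other tested genes. The p-values at matched dose rest on the spread between pairs of mice, drawn towards other genes in the same way. The exact trend p-values rest on the order of the mice over doses. Counting intervals cover counting error only, since reads carry no molecular identifiers. The tests were checked on simulated data. The simulated counts held no GC difference between libraries and no mouse with high fat markers, so the check does not cover these. The members and the gene lists were chosen with earlier results of these data known. Genes named are the 7 members, the 2 genes most like each, list genes past the threshold and the 4 other p53 targets with the smallest p. Cdkn1a was added for its sequence. Alternatives were DESeq2 1.42.0, other filters, scalings of dose and trend statistics, a GC content and length correction, dose as a block, 0 to 125 cGy only, and leaving out mice. One result for a gene of the pathway lists is not reported here. Antisense counts were not analysed here.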

Additional observations from a re-analysis of the deposited data

Results flagged for a closer look

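Among 28 series of 10 values, made of the counts of each gene in each radiation type and of their residuals from a line on dose, 5 had an extreme mouse by Dixon's test at the 95% level, for which chance gives about 1 in 20. Polh had 74 counts in the proton mouse at 75 cGy, where the next highest was 58, and its residual on the log2 scale was 0.48. The same mouse had the lowest Xpc residual of the proton group, -0.34, with 188 counts. This is the mouse whose brown and white fat marker sums, 13884 and 11195, were the highest of its group. The part of those markers in these values was not tested. In the gamma group the Xpc count of 191 at 100 cGy gave a residual of -0.45. That mouse had the highest fat marker sums of the gamma group, 5050 for brown and 4151 for white fat, and the Xpc slope without it was 0.11. The part of those markers was again not tested. Rrm2b reached 337 counts in the gamma mouse at 150 cGy, where the next highest was 276.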

How the results depend on the processing

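There was 1 mouse per dose, and the counts of Mgmt and Polh were low. The SE of the slope in each radiation type was 0.23 for Mgmt, and 0.12 for Polh and for Ddb2. The size of change that could be detected was not computed. Without 150 and 200 cGy, 0 of the 7 genes rose in either radiation type by edgeR and 0 by the exact gamma trend, and all tested genes gave 13 rising and 1 falling with proton dose, 29 and 5 with gamma dose, and 0 by the exact trend in both, in a fit with fewer mice. In it the slope was -0.17 for Xpc, 0.15 for Ddb2, -0.036 for Ercc5 and -0.096 for Rrm2b after proton radiation, and -0.10 for Xpc and -0.032 for Rrm2b after gamma radiation. The difference, proton minus gamma, was -0.35 for Ercc5, -0.33 for Polk, -0.071 for Xpc, -0.064 for Rrm2b and -0.017 for Ddb2. It was 0.34 for Polh and 0.31 for Mgmt, and 0 of all tested genes were called. The slopes of Mgmt (1.46 and 1.15) were larger than over all doses, and the gamma slopes of Ercc5 (0.32) and Polk (0.37) were of like size. The cause was not tested.

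On log2(dose + 1), 1 of the 7 genes rose with proton and 1 with gamma dose, Mgmt both times. All genes then gave 22 rising and 0 falling, and 38 rising and 7 falling, the slope of Ddb2 with proton dose was 0.013, and the Rrm2b difference was -0.0047. With dose as a rank, 1 of the 7 rose with proton dose, and all genes gave 40 rising and 1 falling with proton and 335 rising and 145 falling with gamma dose. With a mean count of 50 required, Mgmt and Polh were not tested. Of the remaining 5 genes 1 rose with proton dose and 2 with gamma dose. All genes then gave 188 rising and 30 falling with proton and 714 rising and 412 falling with gamma dose. The proton slope of Xpc, 0.0045, was -0.0045 in DESeq2, -0.0067 without TMM, -0.0062 with a mean count of 50, -0.0066 on log2(dose + 1), -0.0013 by rank and -0.0028 without the pair at 75 cGy. DESeq2 gave 54 falling genes after proton and 487 after gamma radiation, the fits without the pair at 75 cGy 64 and 573. With at least 1 count in total, 131 rose and 8 fell with proton and 463 rose and 155 fell with gamma dose, and after the GC content and length correction 107, 6, 302 and 102. By trend, the maximum over all genes left 5 genes for protons, 9 for gamma rays and 0 of the 7, TMM-scaled CPM gave 145 after gamma radiation and the fitted line 675. The causes were not tested.

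Leaving out each mouse in turn gave 0 to 3 of the 7 genes rising with proton dose, 0 to 3 with gamma dose and 0 to 2 by the gamma trend (0 without the gamma mouse at 150 cGy), which lost Polk in 9 of its 10 runs, Mgmt in 8 (adjusted p 0.116 to 0.172, kept without the mouse at 100 or at 125 cGy) and Ercc5 in 1. Without the proton mouse at 150 cGy 0 rose with proton dose, and without the gamma mouse at 200 cGy 0 rose with gamma dose. All genes rising ranged from 28 (without the proton mouse at 200 cGy) to 547 (without that at 125 cGy) with proton dose and from 54 (without the gamma mouse at 200 cGy) to 941 (without the proton mouse at 75 cGy) with gamma dose, those falling from 1 to 97 and from 23 to 642, and those passing the trend from 1 to 15 and from 33 to 299. Slopes ranged from -0.087 to 0.050 for Xpc and -0.079 to 0.021 for Ddb2 with proton dose, and from -0.027 to 0.28 for Ddb2 with gamma dose. Differences ranged from -0.30 to 0.0067 for Ddb2, -0.20 to 0.41 for Mgmt, -0.070 to 0.14 for Polk and -0.051 to 0.11 for Rrm2b. With dose as a replicate block, pairing the mice of the same dose, the slope difference was 0.085 for Polk, 0.084 for Mgmt and -0.092 for Ercc5, and 0 genes were called, as without it.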
